A study of Mus musculus with 4 samples.

Results

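Paneth cells sit at the base of the small intestinal crypts and secrete antimicrobial proteins into the lumen, and 10 genes of that secretory programme were followed here in RNA of sorted intraepithelial lymphocytes (IELs). The genes are Lyz1, Defa17, Defa21, Defa22, Defa24, Mmp7, Ang4, Itln1, Reg3b and Reg3g. They were chosen by name, and all 10 of them were found by Entrez identifier among the 19339 genes listed in each library. The samples are TCRβ+CD8αα+ IELs of the small intestine of C57BL/6 mice, from control animals (Kdm6b fl/fl, without Cre) and Kdm6b-deficient animals (Kdm6b fl/fl-CD4Cre). Both genotypes carry the floxed Kdm6b alleles. CD4Cre acts in cells that express Cd4 or descend from such cells, which includes αβ T cells and does not include epithelial cells. The age of the mice is not given in the sources used here. Each genotype has 2 libraries, replicates 1 and 3, and by the study's methods each library is RNA pooled from 3 mice of a genotype.

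In the small intestine, Paneth cells package α-defensins, lysozyme and other bactericidal proteins in apical granules. The α-defensins are made as precursors, and in the mouse the metalloproteinase Mmp7 cleaves them to their active form. Wnt signals at the crypt base drive the Paneth cell programme, whereas the lectins of the Reg3 family are also made by enterocytes, where microbial signals and the cytokine IL-22 induce them. The sort was for T cells. Which cells the RNA of these genes came from was not tested, and their RNA in these libraries is described as measured.

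The α-defensin genes are related copies that share stretches of sequence, so the sequences that set them apart come first. Defa17, Defa21, Defa22 and Defa24 lie on chromosome 8 of GRCm38. The last 105 coding bases of each, which lie in 1 exon and encode the C-terminal end of the precursor with the cysteine-rich mature peptide, are shown 5′ to 3′ on the plus strand from the GENCODE transcripts. Capitals mark the 41 positions at which the 4 sequences are not all the same.
Defa17, chr8:21656534-21656638: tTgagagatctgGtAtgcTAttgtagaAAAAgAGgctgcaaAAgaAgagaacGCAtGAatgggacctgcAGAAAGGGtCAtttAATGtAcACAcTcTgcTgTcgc
Defa21, chr8:21026316-21026420: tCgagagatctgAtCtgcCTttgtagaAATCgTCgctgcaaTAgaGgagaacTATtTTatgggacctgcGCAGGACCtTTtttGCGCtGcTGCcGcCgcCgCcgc
Defa22, chr8:21163048-21163152: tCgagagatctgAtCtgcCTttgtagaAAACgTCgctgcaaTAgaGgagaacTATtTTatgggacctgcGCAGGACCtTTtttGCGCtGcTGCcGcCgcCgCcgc
Defa24, chr8:21735270-21735374: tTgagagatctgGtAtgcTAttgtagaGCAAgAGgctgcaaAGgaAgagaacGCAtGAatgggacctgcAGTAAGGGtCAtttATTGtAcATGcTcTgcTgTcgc

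These 4 genes fall into 2 pairs by sequence. Defa21 and Defa22 share 104 of these 105 bases, and Defa17 and Defa24 share 98. Between the pairs the identity is lower, with 64 of 105 bases shared by Defa21 and Defa24. Over the whole coding length of 279 bases the identity was 99.3% for Defa21 and Defa22, 95.7% for Defa17 and Defa24 and 78.5% for Defa21 and Defa24.

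Reads from such copies cannot always be placed. Of all stretches of 50 bases in its transcripts, Defa17 shared 92.0% with another annotated gene, Defa21 shared 72.9%, Defa22 shared 74.9% and Defa24 shared 28.1%. At 100 bases the shared part was 90.6% for Defa17, all of it with Defa3 or Defa30, and 0 of 320 stretches for Defa24. The level of a single α-defensin is therefore uncertain, and summed levels are given beside it. Lyz1 shared 16.1% of its 50-base stretches with Lyz2, the lysozyme gene of myeloid cells, and 2.06% of its 100-base stretches. Mmp7, Reg3b and Reg3g shared 0% at either length. The read length is not given in the sources used here.

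Facts of the libraries as a whole bear on every value below. Values are FPKM, fragments per kilobase of transcript and per fixed number of mapped fragments, so levels of different genes can be set side by side. FPKM summed to between 578491 and 646671 per library, and genes listed at 0 numbered from 1625 to 4531, the most in control replicate 1. Read counts were not used here, and the depth is known only in relation to control replicate 1, at 0.833 to 0.979 for the other libraries. Kdm6b itself, the gene deleted in T cells, had 16.5 and 16 FPKM in control replicates 1 and 3 against 18.2 and 11.1 FPKM in those labelled Kdm6b-deficient replicates 1 and 3. The first of the Kdm6b-deficient libraries thus lies above both controls for the gene its label says is deleted. The files give 1 value for the whole gene, so a deletion of some exons cannot be read from it. The IEL markers Cd3d, Cd3e, Cd3g, Cd8a, Ptprc, Itgae, Gzma, Gzmb, Cd160 and Klrd1 were above 0 in all 4 libraries and summed to 17390 to 25437 FPKM in the controls and 12869 to 16429 FPKM in those labelled Kdm6b-deficient.

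Transcripts of all 10 antimicrobial genes were plentiful in these T cell libraries, and each was above 1 FPKM in every library. Defa24 (chr8:21734494-21735471) was the most abundant of them. It had 1311 and 10962 FPKM in control replicates 1 and 3 against 5843 and 19807 FPKM in those labelled Kdm6b-deficient replicates 1 and 3. Among the 19339 genes it ranked 31st and 3rd in the controls and 4th and 1st in the Kdm6b-deficient libraries. Defa24 lies in the α-defensin cluster with the other members of the family.

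Defa17 (chr8:21655767-21656736) had 268.1 and 2240 FPKM in control replicates 1 and 3 against 1105 and 4484 FPKM in those labelled Kdm6b-deficient. The Defa21 and Defa22 copies were lower. Defa21 (chr8:21025545-21026517) had 94.6 and 1023 FPKM in the controls and 433.2 and 1887 FPKM in the Kdm6b-deficient libraries. Defa22 (chr8:21162277-21163249) had 106.6 and 1269 FPKM in the controls and 457.9 and 2009 FPKM in the Kdm6b-deficient libraries. For each of the 4 genes control replicate 1 was the lowest library and Kdm6b-deficient replicate 3 the highest, with control replicate 3 above Kdm6b-deficient replicate 1, so the groups overlapped.

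Lyz1 (chr10:117287795-117292868) encodes the lysozyme of Paneth cell granules. It had 493.9 and 3152 FPKM in control replicates 1 and 3 against 1600 and 5197 FPKM in those labelled Kdm6b-deficient replicates 1 and 3. Mmp7 (chr9:7692090-7699585), the processing enzyme of the α-defensins, had the lowest level of the 10 genes in every library. Its values were 20.9 and 149.8 FPKM in the controls and 120.8 and 189.5 FPKM in the Kdm6b-deficient libraries. Lyz1 and Mmp7 ordered the libraries as the α-defensins did, although Mmp7 differed less between Kdm6b-deficient replicate 1 and control replicate 3.

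Ang4 (chr14:51763892-51773590) encodes a bactericidal ribonuclease of the angiogenin family. It had 29.0 and 390.9 FPKM in the controls, and 192.9 and 599.8 FPKM in the Kdm6b-deficient libraries. Itln1 (chr1:171518123-171535325), the secreted lectin intelectin-1 that binds microbial glycans, had 240.4 and 1944 FPKM in the controls and 1297 and 3894 FPKM in the Kdm6b-deficient libraries. Both followed the same order of libraries.

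Reg3b and Reg3g, neighbours on chromosome 6 that encode C-type lectins of the RegIII family, behaved differently. Reg3b (chr6:78370885-78373466) had 889.8 and 2000 FPKM in control replicates 1 and 3 against 3695 and 899.0 FPKM in those labelled Kdm6b-deficient replicates 1 and 3. Reg3g (chr6:78466269-78468874), which acts mainly on Gram-positive bacteria, had 781.3 and 1976 FPKM in the controls and 3974 and 1081 FPKM in the Kdm6b-deficient libraries. For both, the highest library was Kdm6b-deficient replicate 1, control replicate 1 was the lowest, and control replicate 3 lay between the Kdm6b-deficient values, so these groups overlapped too. Kdm6b-deficient replicate 3, the highest library for the other 8 genes, was close to control replicate 1 for this pair.

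**Figure D1:**
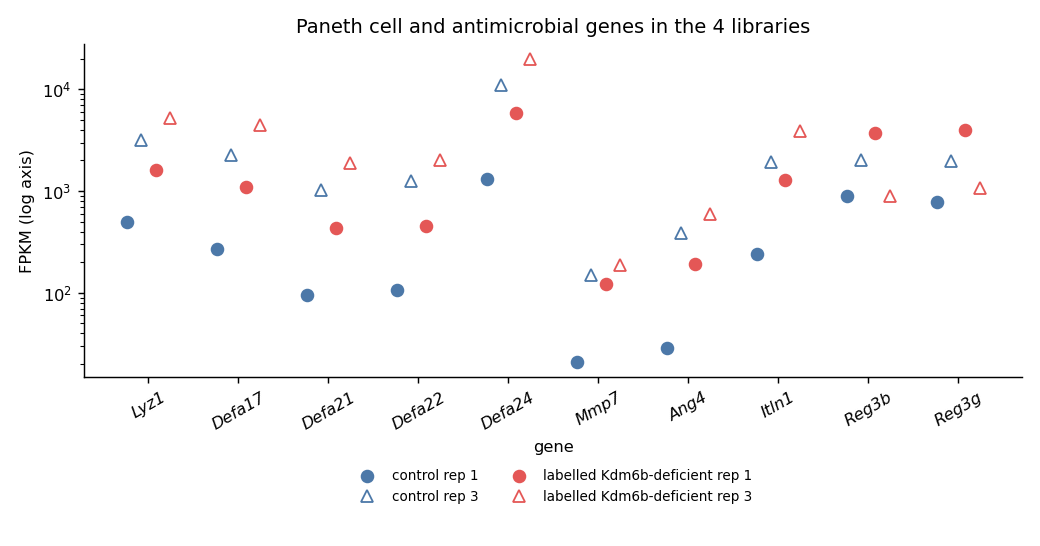
FPKM (vertical log axis) of the 10 genes in each library, with controls in blue and libraries labelled Kdm6b-deficient in red, circles for replicate 1 and triangles for replicate 3. Control replicate 1 is lowest for all 10 genes, from 20.9 FPKM for Mmp7 to 1311 FPKM for Defa24, whereas the red circle is highest for Reg3b (3695) and Reg3g (3974).

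The question of the design is whether these genes differ between Kdm6b-deficient and control IEL libraries. On the log2(FPKM + 1) scale, 8 of the 10 genes had a difference of group means above 1 (Kdm6b-deficient minus control), against 6.2% of the 12009 genes tested. Their log2 fold changes ran from 1.21 for Lyz1 to 1.71 for Itln1, with standard errors of 0.87 to 1.26. The median over the 10 genes was 1.46, and over all genes tested it was 0.001. With limma and Benjamini-Hochberg adjustment over all genes, 0 of the 10 had an adjusted p under 0.05, against a background of 0.0% (0 of 12009 genes, with 642 genes or 5.35% at an unadjusted p under 0.05, and 0 of the 10). No gene of the 10 had both Kdm6b-deficient libraries above both controls, which was the case for 18.4% of the genes tested.

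Defa24 had a log2 fold change of 1.5 ± 1.12 (SE, n = 2 libraries per group, limma adjusted p = 0.776). For Lyz1 it was 1.21 ± 0.98 (limma adjusted p = 0.787), and for Itln1, the largest of the 10, 1.71 ± 1.05 (limma adjusted p = 0.757). Reg3b and Reg3g had smaller differences. They were 0.45 ± 0.74 for Reg3b (limma adjusted p = 0.886) and 0.74 ± 0.73 for Reg3g (limma adjusted p = 0.819). The remaining 5 genes had log2 fold changes of 1.38 (Defa22) to 1.65 (Ang4). Since nothing in the labels says that the 2 libraries of a genotype came from separate experiments, these p-values measure only the spread between pools of mice.

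The difference between genotypes depended on single libraries. Within the controls, replicate 3 exceeded replicate 1 by 2.67 to 3.71 on the log2 scale for the 8 genes other than Reg3b and Reg3g, more than any of the genotype differences. Without control replicate 1 the log2 fold changes of the 10 genes ran from −0.40 to 0.21 and 0 of them were above 1, against 2.47% of the genes tested in that setting. Without control replicate 3 they ran from 1.03 to 3.51 and all 10 were above 1, against 10.3% of genes. Leaving out Kdm6b-deficient replicate 3 left 3 of the 10 above 1, with a range of 0.31 to 1.68, against 2.69% of genes. Leaving out Kdm6b-deficient replicate 1 gave −0.57 for Reg3b and −0.20 for Reg3g, and 1.73 to 2.59 for the other 8, with 10.6% of genes above 1. In each case the library that remains alone in its group is assumed to vary as the other group does.

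**Figure D2:**
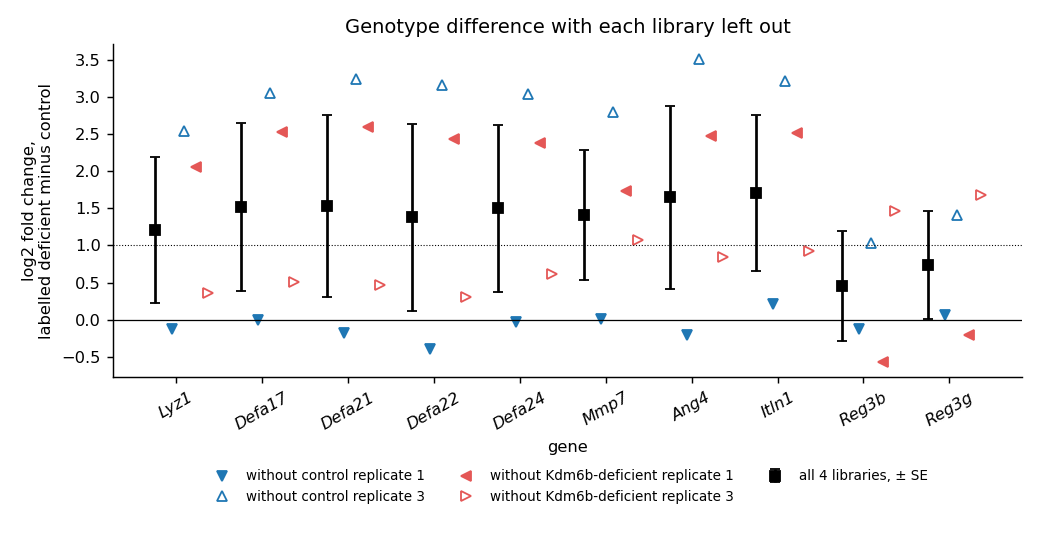
Log2 fold change (labelled Kdm6b-deficient minus control, vertical axis) of each gene with all 4 libraries (black squares, bars are SE) and with 1 library left out (triangles). The filled blue triangles, without control replicate 1, all lie between −0.40 and 0.21, and the open blue ones, without control replicate 3, between 1.03 and 3.51.

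Summing the copies did not alter the order of libraries. The 4 named α-defensins together had 1780 and 15494 FPKM in control replicates 1 and 3 against 7839 and 28186 FPKM in those labelled Kdm6b-deficient replicates 1 and 3. Over all 26 Defa genes in the files the sums were 4203, 38225, 18572 and 67668 FPKM in the same libraries. The family alone thus made up 0.727% of all FPKM in control replicate 1 and 10.5% in Kdm6b-deficient replicate 3, a 16.1-fold range of the summed level. The log2 fold change was 1.5 for the sum of 4 and 1.48 for the sum of 26, and the exact permutation test over libraries gave a two-sided p = 0.667 for each, where 2 against 2 libraries allow no p below 0.333. Without control replicate 1 the log2 fold change of the sum of 4 was −0.06.

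The shares of the abundant α-defensins changed little while the size of the pool moved. Defa24 was 31.2%, 28.7%, 31.5% and 29.3% of the summed Defa FPKM in control replicates 1 and 3 and Kdm6b-deficient replicates 1 and 3. For the 21 Defa genes that reached 100 FPKM, the share of the family total varied by a median of 1.34-fold between the highest and lowest library, with a range of 1.10 to 3.17. Among the Defa genes that did not reach it, the fold ran from 1.3 for Defa40 to 4.77 for Defa41. Of the 26 Defa genes, 24 ordered the libraries as the 4 named ones do, an order found in 12.6% of all genes tested. Because the copies share reads, these shares also depend on how reads were divided among them.

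**Figure D3:**
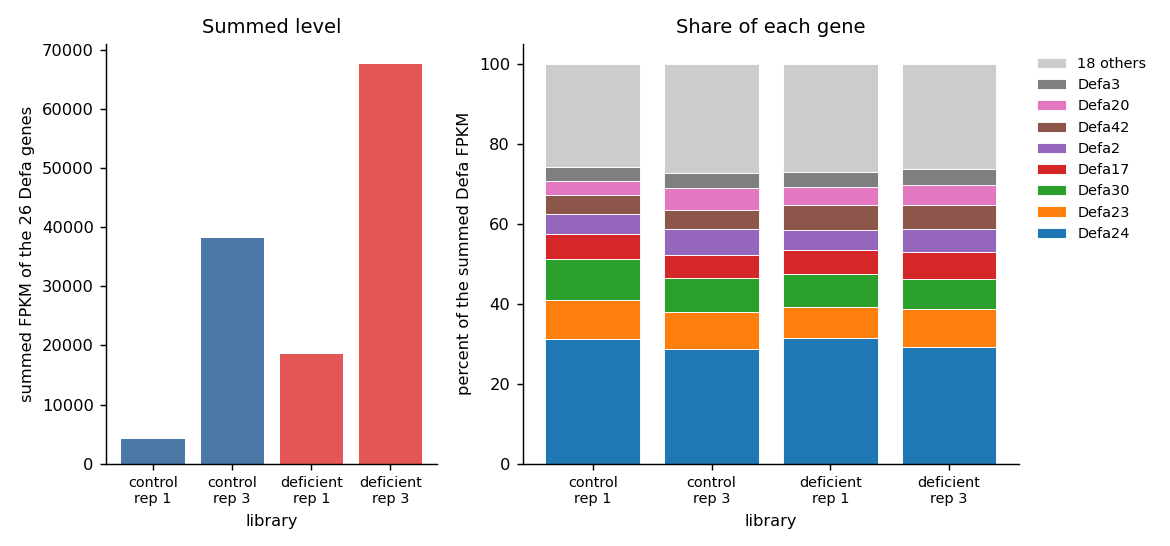
Left, summed FPKM of the 26 Defa genes per library, from 4203 in control replicate 1 to 67668 in the library labelled Kdm6b-deficient replicate 3. Right, percent of that sum held by the 8 most abundant Defa genes and the 18 others, in which Defa24 keeps 28.7% to 31.5%.

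Ratios within a library remove its overall size. Defa24 was 2.65 to 3.81 times Lyz1 in FPKM, and Itln1 was 0.487 to 0.811 times Lyz1. Mmp7 was 0.0365 to 0.0755 times Lyz1, highest in Kdm6b-deficient replicate 1. Against Lyz1 the Reg3 lectins moved far more. Reg3g was 1.58 and 0.627 times Lyz1 in control replicates 1 and 3 against 2.48 and 0.208 times Lyz1 in those labelled Kdm6b-deficient replicates 1 and 3, an 11.9-fold range. Reg3g and Reg3b kept close to each other, with Reg3g at 0.878 to 1.2 times Reg3b. The ratio of Lyz1 to Lyz2, the lysozyme of macrophages and other myeloid cells, was 1.35 in control replicate 1, 12.5 in control replicate 3, 4.04 in Kdm6b-deficient replicate 1 and 8.31 in Kdm6b-deficient replicate 3.

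The promoter sequences of the genes that went separate ways are shown next, with 3 motifs found in them after the sequences had been seen. RefSeq (GRCm38.p6) promoters were matched for 8 of the 10 genes, all but Defa17 and Defa24. Each sequence is the 250 bases before the start, 5′ to 3′ on the gene's strand, with capitals for ATCAAAG (a core bound by TCF/LEF factors), TTCNNNGAA (the pattern of STAT sites) and TATAAA (the TATA box), searched on both strands. Defa21 and Defa22 are identical over these 250 bases, so 1 of them is printed.
Defa21, chr8:21025295-21025544, plus strand: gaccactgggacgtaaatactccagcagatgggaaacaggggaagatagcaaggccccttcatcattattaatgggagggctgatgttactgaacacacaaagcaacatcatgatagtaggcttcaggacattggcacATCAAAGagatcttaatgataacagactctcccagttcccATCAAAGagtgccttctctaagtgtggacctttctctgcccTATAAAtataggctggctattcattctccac
Reg3b, chr6:78370635-78370884, plus strand: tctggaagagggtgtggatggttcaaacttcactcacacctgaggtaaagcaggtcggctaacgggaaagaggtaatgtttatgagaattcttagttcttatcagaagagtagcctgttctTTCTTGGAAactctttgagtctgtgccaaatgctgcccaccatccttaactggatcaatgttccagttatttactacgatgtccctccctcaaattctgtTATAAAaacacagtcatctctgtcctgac
Reg3g, chr6:78468875-78469124, minus strand: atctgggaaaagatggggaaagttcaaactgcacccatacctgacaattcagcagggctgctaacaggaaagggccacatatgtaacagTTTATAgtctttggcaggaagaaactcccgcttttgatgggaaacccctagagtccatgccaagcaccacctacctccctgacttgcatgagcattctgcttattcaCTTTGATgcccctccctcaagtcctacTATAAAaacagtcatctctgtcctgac

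Defa21 and Defa22 each hold ATCAAAG at 112 and 72 bases before the start and TATAAA at 31 bases before it. Among the 15 Defa genes with a promoter in the table, 13 hold at least 1 ATCAAAG and 9 hold at least 2. Over all 32851 promoters of this length, 3.21% hold at least 1 and 0.0822%, or 27 promoters, hold at least 2. The Defa promoters are related copies, some of them identical, so they are not separate cases. The 27 include the 9 Defa promoters, and no enrichment is drawn from these counts. The Reg3b promoter holds TTCNNNGAA at 129 bases before the start, a pattern found in 7.02% of all promoters. Ang4 holds it as well, at 192 bases. Reg3g holds ATCAAAG on the opposite strand at 54 bases. TATAAA stands at 29 bases in Reg3b and 27 bases in Reg3g, followed in both by a shared stretch of 20 bases, acagtcatctctgtcctgac, and is found in 12.4% of all promoters. Reg3g also holds it on the opposite strand at 161 bases, and Mmp7 holds it at 123 and 26 bases. The table gives Mmp7 a start further downstream as well, and the window before that start holds ATCAAAG at 247 bases. The matches do not overlap each other in the printed sequences. None of the 3 motifs was in the Lyz1 or Itln1 sequence. Such a match describes the letters of the window and no binding was measured.

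Markers of enterocytes and goblet cells were likewise mostly above 1. Of 13 enterocyte markers, such as the brush border enzyme Sis and the lipid carrier Fabp1, 12 had a log2 fold change above 1, a size reached by 6.2% of all genes tested. They summed to 320.2 and 937.0 FPKM in control replicates 1 and 3 and to 853.0 and 2427 FPKM in those labelled Kdm6b-deficient, and 0 of the 13 were listed at 0 in any library. Of 6 goblet cell markers 6 were above 1, with sums of 437.3 and 1842 FPKM in the controls and 1887 and 4305 FPKM in the Kdm6b-deficient libraries. The goblet cell sum was slightly higher in Kdm6b-deficient replicate 1 than in control replicate 3. Their geometric mean was lower there, at 109 against 118 FPKM, the same direction as the 8 Paneth cell genes. Both Kdm6b-deficient libraries lay above both controls for 2 of the 13 enterocyte markers, 3 of the 6 goblet cell markers and 2 of the 4 stem cell markers tested, against 18.4% of all genes tested and 0 of the 10 Paneth cell and antimicrobial genes. Of 8 pan-epithelial markers 6 were above 1, beside the same 6.2%. Of 7 enteroendocrine markers 6 were tested, 5 were above 1 (6.2% of all genes), and all 6 had both Kdm6b-deficient libraries above both controls (18.4% of all genes). Neurod1 passed the filter through the Kdm6b-deficient libraries alone, which fixes that outcome for it, and Gip, with 0.44 and 1.58 FPKM in the controls and 0.06 and 0.71 FPKM in the Kdm6b-deficient libraries, did not pass, so the count supports nothing about the list. The list had sums over the 7 of 11.7 and 20.3 FPKM in the controls and 81.1 and 71.5 FPKM in the Kdm6b-deficient libraries. Of 5 tuft cell markers 1 was tested, Avil, at −0.11. Of the 10 IEL markers 0 were above 1 and 2 were below −1 (0.441% of all genes), Gzmb at −1.06 and Klrd1 at −1.08, and 7 were lower in both Kdm6b-deficient libraries than in both controls (18.6% of all genes). The part of the epithelial RNA in the differences of the 10 genes was not tested, and fewer cells of a type and less RNA per cell cannot be told apart in these bulk libraries.

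Set against the enterocyte markers, the 8 Paneth cell genes no longer separated control replicate 1 by the same margin. The ratio of geometric means was 12.2 and 36.1 in control replicates 1 and 3 against 22.5 and 22.8 in those labelled Kdm6b-deficient replicates 1 and 3, a log2 difference of 0.11. Both Kdm6b-deficient libraries thus lay between the controls. Relative to control replicate 1, the 8 genes stood at 9.05 times in control replicate 3, the enterocyte markers at 3.05 times, the goblet cell markers at 4.42 and the stem cell markers at 2.68. In Kdm6b-deficient replicate 3 the same figures were 15.3, 8.19, 10.7 and 8. The Reg3 pair set against the enterocyte markers gave 67.6 and 52.9 in the controls and 122 and 9.77 in the Kdm6b-deficient libraries, so that the library richest in enterocyte RNA had the least Reg3 RNA for that amount.

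**Figure D4:**
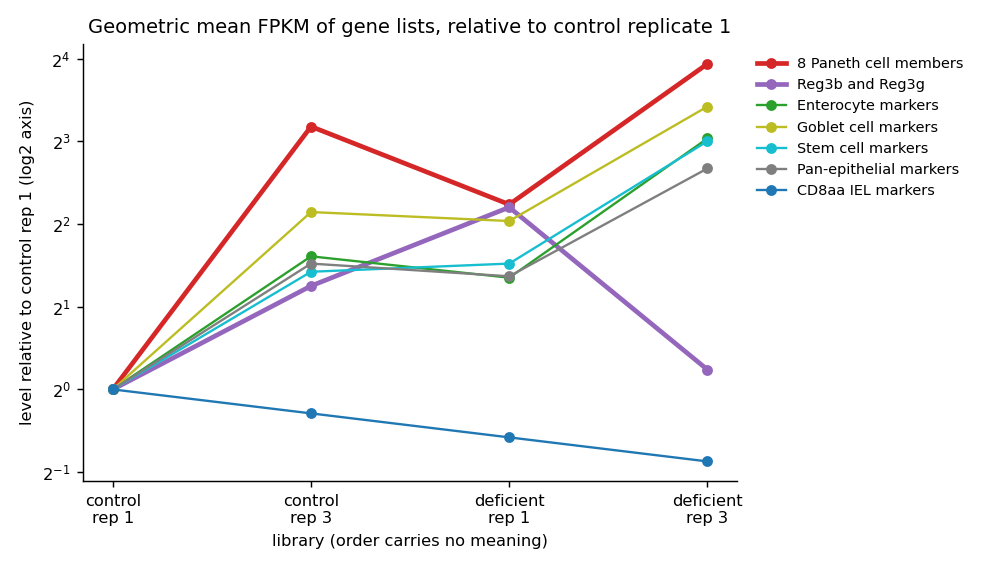
Geometric mean FPKM of gene lists in each library relative to control replicate 1 (vertical log2 axis; lines only join the points of a list). The 8 Paneth cell genes reach 9.05 in control replicate 3 and 15.3 in the library labelled Kdm6b-deficient replicate 3, the Reg3 pair peaks at 4.60 in Kdm6b-deficient replicate 1, and the IEL markers stay between 0.547 and 1.

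Other Paneth cell genes were mostly on the same side as the named ones. Of 30 further Paneth cell genes, most of them α-defensins, 29 were listed and tested, 23 had a log2 fold change above 1 (6.2% of all genes tested) and 0 had an adjusted p under 0.05 with limma. The 8 most abundant, Defa23, Defa30, Defa2, Defa42, Defa20, Defa3, Defa37 and Defa5, had log2 fold changes of 1.26 to 1.83. Many of the α-defensins share sequence with the named ones, so their values are not independent of them. The listed genes outside that family are named after their values were seen. Of these, Habp2, Nupr1, Clps and Sox9 had log2 fold changes of 1.24, 1.09, 1.16 and 1.41. Mptx1, Wnt3 and Mptx2 had 0.99, 0.92 and 0.88. Defa23, the highest of them by the mean of the 4 libraries, had 407.1 and 3527 FPKM in the controls against 1418 and 6344 FPKM in those labelled Kdm6b-deficient. Among all 29, both Kdm6b-deficient libraries lay above both controls for 2, against 18.4% of all genes tested.

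Antimicrobial and mucosal defence genes that are not restricted to Paneth cells were kept as a list of their own. Of 22 such genes 19 were listed and 14 tested, 8 had a log2 fold change above 1 (6.2% of all genes tested), and for 7 both Kdm6b-deficient libraries lay above both controls (18.4% of all genes tested), with 0 at an adjusted p under 0.05 (limma). S100a8 is in both counts and passed the filter through the Kdm6b-deficient libraries alone, so it had to be in the second. Reg1, a relative of the Reg3 lectins, had 51.2 and 76.6 FPKM in the controls against 161.7 and 287.7 FPKM in those labelled Kdm6b-deficient, a log2 fold change of 1.77 ± 0.34 (limma adjusted p = 0.755). Pglyrp1, a peptidoglycan recognition protein, had 18.9 and 39.6 FPKM in the controls and 56.9 and 85.8 FPKM in the Kdm6b-deficient libraries. Lyz2 was 365.3 and 253.1 FPKM in the controls and 396.0 and 625.6 FPKM in the Kdm6b-deficient libraries, without the low value of Lyz1 in control replicate 1. Pigr, the transporter of secretory IgA, Dmbt1, a scavenger receptor of mucus, Reg4, Lypd8, which binds flagella, and Zg16, a lectin of the inner mucus layer, had log2 fold changes of 1.54, 1.42, 1.99, 1.05 and 1.28. Of these 5, Pigr and Dmbt1 had groups that did not overlap, with 172.3 FPKM in control replicate 3 against 173.3 FPKM in Kdm6b-deficient replicate 1 for Pigr.

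Regulators of the Paneth cell and of antimicrobial genes were kept as a further list. Of 16 genes 13 were tested, 2 had a log2 fold change above 1 (6.2% of all genes tested) and 0 were below −1 (0.441%), with a median of 0.17 over the list and 0 at an adjusted p under 0.05 (limma). For 6 of the 13 both Kdm6b-deficient libraries lay above both controls, against 18.4% of all genes tested. The 2 genes with a log2 fold change above 1 were Tcf7l2 and Atoh1. Tcf7l2, the TCF factor of the intestinal epithelium, had 1.75 and 6.44 FPKM in the controls against 7.64 and 12.2 FPKM in those labelled Kdm6b-deficient. Atoh1, which specifies secretory cells, is named here after its values were seen. It had 1.47 and 1.92 FPKM in the controls and 4.51 and 5.89 FPKM in the Kdm6b-deficient libraries. Xbp1, Stat3, Myd88, Il10rb and Atg16l1, which immune cells use as well, had log2 fold changes of −0.34 to 0.17. Il18 had 0.91. Spdef and Cdx2, transcription factors of the intestinal epithelium, had 0.97 and 0.81, and Gfi1, which acts in secretory epithelial cells and in T cells, had −0.73 (these 3 are named after their values were seen).

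Il22, the cytokine that induces Reg3b and Reg3g through Stat3 in epithelial cells, shared its highest library with the lectins and not its lowest. It had 4.26 and 10.7 FPKM in control replicates 1 and 3 against 11.1 and 0.60 FPKM in those labelled Kdm6b-deficient replicates 1 and 3. The groups overlapped, and the log2 fold change was −0.83 ± 0.99 (limma adjusted p = 0.844). In Kdm6b-deficient replicate 1 Il22, Reg3b and Reg3g were all at their highest, although Il22 was nearly as high in control replicate 3. At the low end they parted, since Il22 was lowest in Kdm6b-deficient replicate 3 and Reg3b and Reg3g in control replicate 1. The differences of group means also had opposite signs, −0.83 for Il22 and 0.45 and 0.74 for Reg3b and Reg3g. With 4 libraries no correlation is given.

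**Figure D5:**
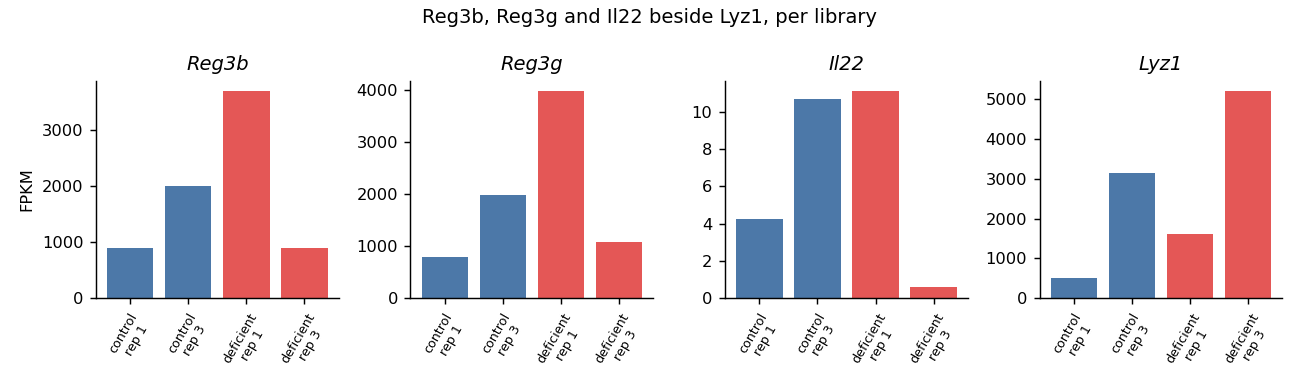
FPKM of Reg3b, Reg3g, Il22 and Lyz1 in each library (bars from 0, 1 library each; separate axis per gene), controls in blue and libraries labelled Kdm6b-deficient in red. Reg3b, Reg3g and Il22 are highest in Kdm6b-deficient replicate 1, at 3695, 3974 and 11.1 FPKM, with Il22 at 10.7 FPKM in control replicate 3. Lyz1 is highest in Kdm6b-deficient replicate 3, at 5197 FPKM.

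The genes whose profiles over the 4 libraries lay nearest to the mean profile of the 10 genes, by Euclidean distance of centred log2(FPKM + 1), were Tmem253 (distance 0.3), Fxyd3 (0.302), Defa37 (0.328), Slc23a4 (0.354) and Habp2 (0.404). Tmem253 had 1.29 and 12.7 FPKM in the controls against 6.93 and 17.2 FPKM in those labelled Kdm6b-deficient. Because the mean of 10 joins both patterns, the search was repeated for the Reg3 pair alone after the values had been seen. The nearest genes were then Ly6i (0.600) and Duoxa2 (0.708), the maturation factor of the epithelial dual oxidase Duox2, followed by Ms4a4c, Ppfibp1 and Gp1bb at 0.769 to 0.810. Duoxa2 had 1.15 and 5.57 FPKM in the controls and 6.64 and 2.74 FPKM in the Kdm6b-deficient libraries. For the 8 others, also searched after the values had been seen, all of the 5 nearest were α-defensins, at 0.230 (Defa3) to 0.297 (Defa30). These 8 include the named α-defensins, which share sequence with other copies, so that outcome was partly fixed in advance.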

How the data were processed

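RNA of sorted CD45+CD4-TCRβ+CD8α+CD8β- IELs was sequenced on the HiSeq platform for the authors, who mapped reads to mm10 and quantified them with RSEM. The submitters' processing notes name Bowtie2 2.2.5 and RSEM 1.2.8. The deposited values are FPKM, scaled by the authors to transcript length and mapped fragments. Symbols and coordinates came from RefSeq GRCm38.p6, which matched 18467 of 19339 identifiers, and transcripts from GENCODE (GRCm38). The 12009 genes that reached 1 FPKM in 2 or more libraries were fitted on log2(FPKM + 1) with limma 3.58.1 (lmFit, eBayes with a trend, R 4.3.3), with genotype as the only term and Benjamini-Hochberg adjustment at 0.05. Fold changes on this scale understate those of low genes. A size rule counted log2 fold changes above 1 or below −1. Read counts were not used here, so no counting error was computed. Python 3.11.15 with pandas 2.3.3 and numpy 2.4.6 read the tables, and the model was tested on simulated data.

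The genes, lists and tests were chosen with earlier results of these data known. Named were the 10 genes, Kdm6b, the 8 most abundant genes of each list and the 5 nearest profiles. Alternatives were the pseudocount, filter, scaling, trend, a replicate block and leaving out each library.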

Additional observations from a re-analysis of the deposited data

How the results depend on the processing

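Under each alternative with all 4 libraries and no block, 0 genes had a limma adjusted p under 0.05 (78 to 948 at an unadjusted p under 0.05). The median of all genes moved to −1.24 when libraries were scaled to the enterocyte markers, where the log2 fold changes were −0.18 for Lyz1, −0.01 for Defa22, −0.94 for Reg3b and −0.65 for Reg3g, 0.11 for the sum of 4 Defa genes, and 0 of the 10 genes were above 1. All 10 stayed above that median. The genes above 1 or below −1 numbered 797 of 12009, and 1381 with a pseudocount of 0.1, 1451 with 0.01, 1434 after scaling to Cd3d, Cd3e, Cd3g and Ptprc (1408 above 1, median 0.36) and 8186 after scaling to the enterocyte markers (38 above 1), where the split of the calls turns over. The other settings that kept all libraries left 8 or 9 of the 10 above 1.

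With 1 library left out, this number ran from 341 to 1489, the genes among the 10 above 1 from 0 to 10 and the log2 fold change of the 4 summed Defa genes from −0.06 to 3.06. The single genes ran from −0.13 to 2.54 for Lyz1, −0.01 to 3.05 for Defa17, −0.18 to 3.24 for Defa21, −0.40 to 3.16 for Defa22, −0.03 to 3.04 for Defa24, −0.20 to 3.51 for Ang4, 0.01 to 2.80 for Mmp7, 0.21 to 3.22 for Itln1, −0.57 to 1.47 for Reg3b and −0.20 to 1.68 for Reg3g.

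When the replicate number was fitted as a block, 1019 genes (8.49%, 886 of them higher) had a limma adjusted p under 0.05, against 0 without it, and among them were the 8 genes other than Reg3b and Reg3g (adjusted p = 0.00218 to 0.0348, Reg3b 0.671, Reg3g 0.453). Same-numbered libraries deviated together (Pearson 0.56, Spearman 0.542, across genes), but nothing in the labels says that equal numbers mark pools prepared together, so the libraries share only a number. As for depth, Ang4 and Mmp7 in control replicate 1 correspond to about 230 and 280 fragments by the FPKM steps.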

Other observations

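Single genes of the lists above are given here by library. S100a8, a neutrophil gene of the calprotectin pair, was listed at 0 in both controls and had 2.89 and 1.77 FPKM in the samples labelled Kdm6b-deficient replicates 1 and 3. Retnlb, a bactericidal goblet cell protein, had 0.62, 0, 3.92 and 0.60 FPKM in control replicates 1 and 3 and Kdm6b-deficient replicates 1 and 3, highest in the library that also had the most Reg3b and Reg3g. Mptx2, a Paneth cell pentraxin, had 98.4, 438.3, 404.0 and 364.2 FPKM in the same libraries, highest in control replicate 3. These genes are named after their values were seen. The limma adjusted p was 0.777 for Mptx2, and Retnlb was too low to be tested. No test is given for S100a8, which passed the filter through the Kdm6b-deficient libraries alone.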
